A study of Caenorhabditis elegans with 2 samples.

Results

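The core cell death pathway of Caenorhabditis elegans was taken here as 8 genes, egl-1, ced-3, ced-4, ced-9, ced-13, cep-1, ces-1 and ces-2, and asked for binding of the tagged protein MCD-1 at or near each gene. The 8 genes were found by name in the gene models of the WBcel235 assembly, where they are 8 of 19973 protein-coding genes on the nuclear chromosomes. Every peak overlapping a gene or lying within 2000 bp of it was collected from 8 deposited peak lists. Chromatin immunoprecipitation followed by sequencing (ChIP-seq) had been run with an anti-GFP antibody on 2 biological replicates of whole young adults, which form 1 group. Both replicates were of strain RW12215, in which a TY1, EGFP and 3xFLAG tag was inserted into mcd-1 itself by CRISPR. The animals were synchronised by bleaching and L1 starvation and taken at 65 hours, the chromatin was sonicated to a stated 200 to 800, and sex was not collected. Both replicates carry the tag, and a control experiment that the labels name as possible was not analysed here. Chromatin came from whole animals, so a peak in germ cells, in soma, or in a few cells strongly and in many weakly cannot be told apart. Sequencing depth is unknown, since the lists hold no read counts, and the error given is the spread of 2 replicates.

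In the nematode death pathway the BH3-only protein EGL-1 binds CED-9, the BCL-2 relative on mitochondria, which then releases the adaptor CED-4 to activate the caspase CED-3. Upstream of it, the p53 relative CEP-1 switches on egl-1 and its BH3-only relative ced-13 after DNA damage, while the Snail-family repressor CES-1 holds egl-1 off in the sisters of the NSM neurons and the bZIP protein CES-2 holds ces-1 off. In adult hermaphrodites physiological death is largely a germline process, and MCD-1 is a zinc finger protein whose loss lowers the number of cell deaths when CED-3 activity is already weak.

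Of the 8 genes, ced-9, cep-1 and ced-3 had a peak past the authors' threshold within 2000 bp, and egl-1, ced-4, ced-13, ces-1 and ces-2 had none. None of the 3 peaks had its summit within the 1000 bp before or the 200 bp after the gene's own annotated 5′ end. The summit near ced-9 lay at the promoter of the operon that ced-9 shares with an upstream gene. The count was 3 of 8 in the conservative list, the reproducible peaks of both replicates, against 25.4% of all protein-coding genes. It was the same 3 genes in the pooled list (27.8% of genes), in replicate 1's own list (23.3%) and in replicate 2's own list (21.4%), and 18.2% of genes had a peak in each of the 4 lists. With 8 members, 3 is a count close to the background and is not a result about the pathway. The threshold is an irreproducible discovery rate (IDR) of 0.01. That is the estimated proportion of peaks at least as highly ranked that would not recur between the rankings compared. A replicate's own list belongs to that sample alone, so its IDR does not measure recurrence in the other replicate.

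Below the threshold, the ranked lists hold every peak that was ranked, strong or weak. In the ranked list behind the conservative one, 6 of the 8 genes had at least 1 peak within 2000 bp, against 60.7% of all genes. The count was 6 in the pooled ranked list (62% of genes), 5 in replicate 1's (67.8%) and 6 in replicate 2's (64%), and the 5 genes in each of the 4 ranked lists were ced-3, ced-4, ced-9, cep-1 and ces-1 (56.5% of genes). The gene that came and went was ced-13. The genes egl-1 and ces-2 had no peak in any of the 8 lists, 2 of 8 against 26.1% of all genes. These shares too lie near the background.

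A summit counted as promoter-proximal when it fell within the 1000 bp before or the 200 bp after the gene's annotated 5′ end, and positions from that end are negative upstream. No member had one in the conservative list, against 13.2% of all genes, nor in the pooled list (14.4%) or the lists of replicate 1 (12.4%) and replicate 2 (10.8%). Among ranked peaks of any strength, ced-4 alone had one in the conservative ranked list (42% of genes), and ced-4 and cep-1 in the pooled ranked list (43.2%). Replicate 1's ranked list had one at ced-3, ced-4 and ced-9 (41.4%) and replicate 2's at ced-9 only (39.6%). The only member with one in both replicates was ced-9, at -121 bp in replicate 1 and at -446 bp in replicate 2, which are different places.

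Signal is the deposited enrichment value of a peak, on a scale of the peak caller's own. To set the replicates side by side, the strongest peak within 2000 bp of a gene was divided, in each replicate, by that replicate's median over the 3903 conservative peaks, which was 87.3 in replicate 1 and 66.7 in replicate 2. At ced-9, cep-1 and ced-3, the genes with a thresholded peak, every replicate was above 1, the median conservative peak. At ced-4, ces-1 and ced-13, which had only peaks below the threshold, every listed value was 0.304 of it or less. The scale is the median of thresholded peaks, so this split follows the threshold and is not a separate result.

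**Figure D1:**
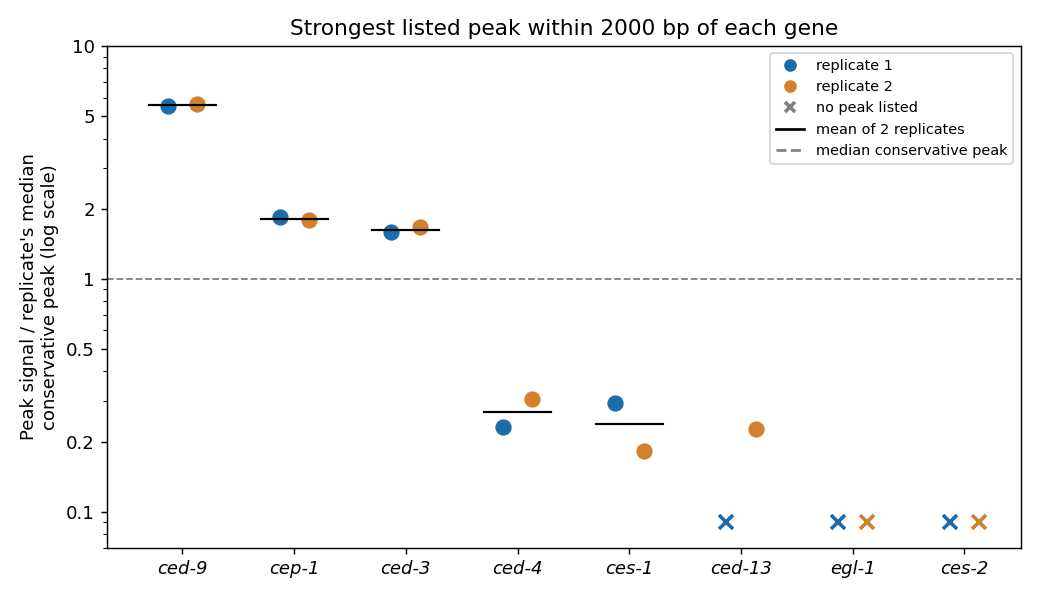
Signal of the strongest ranked peak within 2000 bp of each gene, as a multiple of the replicate's median over conservative peaks (log axis), with replicates as points, their mean as a bar and crosses where no peak is listed. The replicates of ced-9 sit at 5.51 and 5.62 and those of ced-4 and ces-1 between 0.181 and 0.304, while egl-1 and ces-2 have no value in either replicate.

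The death activator egl-1 (WBGene00001170), whose BH3-only product starts the cascade by binding CED-9, stood in a stretch without any peak. The gene lies at chrV:14431308-14432359 on the minus strand. Its nearest peaks were all downstream in the ranked lists, 6730 bp away in the conservative ranked list, 5843 bp in the pooled one, 6705 bp in replicate 1 and 5817 bp in replicate 2. The first of these had a signal of 40.3 with its summit at +614 bp from the 5′ end of rrsr-1, and the second a signal of 82.1 with its summit at -273 bp from rrsr-1. Across the union of the 4 ranked lists, no peak touched chrV:14425492-14443916, a run of 18425 bp that holds all of egl-1. Peakless runs at least as long numbered 824 of 51591. That counts runs and not genes, and a long run can hold more genes than a short one. Genes on chromosome V often lie far from peaks: 37.2% of them were at least as far from a conservative ranked peak as egl-1, against 24.1% of all genes. The absence is thus an absence of listed peaks, and a signal under the lists' own floor was not detectable here.

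The bases just upstream of egl-1 are shown because they precede the start of the pathway's trigger, and no list has a peak there. A stretch of this length does not cover elements farther from the gene. The stretch is the 250 bases before the gene's start, chrV:14432360-14432609 in ce11 (RefSeq's WBcel235 sequence), minus strand, read 5′ to 3′ towards the gene. Capitals mark a match to the CHR, the cell cycle genes homology region that the DRM subunit LIN-54 recognises, searched as TTCGAA or TTTGAA on both strands.
egl-1 promoter: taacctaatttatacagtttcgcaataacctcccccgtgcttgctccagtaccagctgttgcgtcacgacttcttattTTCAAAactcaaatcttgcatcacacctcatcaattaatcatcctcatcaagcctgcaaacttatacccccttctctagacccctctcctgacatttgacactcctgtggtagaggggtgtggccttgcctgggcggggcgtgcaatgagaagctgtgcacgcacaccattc
The single match, at bases 79 to 84, reads TTCAAA, which is TTTGAA on the other strand. A CHR match is common: 68.9% of all promoters of 300 bases, from 250 before to 50 after the start, held at least 1. The GC content of the stretch was 48.8%.

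The other BH3-only gene, ced-13 (WBGene00000427, chrX:8299119-8299654, minus strand), had only peaks below the threshold, and none in replicate 1. In the conservative ranked list 4 peaks lay within 2000 bp, with signals of 24.5, 7.26, 6.49 and 3.41. All 4 stood at an IDR of 0.804, the highest value of that list, which 42.1% of its peaks share. The strongest was just above the list's median signal of 22.3. It had its summit at -1599 bp, inside a coding exon of the upstream gap junction gene inx-5. The pooled ranked list lacked it and held only the peaks of 7.26 and 6.49. Replicate 2 listed a peak there with a signal of 15.1 (0.226 of its median conservative peak, IDR 0.525) and replicate 1 listed none within 2000 bp, so no mean is given. The nearest conservative peak was 46486 bp away. On chromosome X 19.85% of genes were at least as far from one, against 12.7% of all genes.

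Around ced-9, which encodes the BCL-2 relative that keeps CED-4 inactive, stood the strongest peak of the pathway, and it lay at the head of the operon and not at ced-9's own start. The gene (WBGene00000423) lies at chrIII:10335172-10337522 on the plus strand, with 3 bp between it and the upstream gene cyt-1, which the annotation lists as mev-1. Its product is a subunit of succinate dehydrogenase, and the pair are transcribed together as an operon. The peak spanned chrIII:10334000-10334288, a width of 289 bp, with a signal of 851 and rank 286 of the 3903 conservative peaks. Its summit was intergenic, at -147 bp from mev-1, at -112 bp from the divergent jumonji-domain gene jmjd-4, and at -1042 bp from ced-9, just outside the promoter window. By nearest 5′ end the peak belongs to jmjd-4.

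In replicate 1 the ced-9 peak had a signal of 480.5 and in replicate 2 a signal of 375.1. Relative to the median conservative peak of each replicate this was 5.51 and 5.62 (mean 5.56 ± 0.0804 SD, n = 2), and the summits of the replicates were 9 bp apart. Both replicates were high, and the scaled values lay closer together than the raw signals. The IDR was at the floor of the file, 1e-05, in each of the 4 ranked lists.

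The intergenic stretch between jmjd-4 and mev-1 is shown because it holds this summit and serves as the promoter from which ced-9 is read within the operon. It covers the 258 bases of chrIII:10334019-10334276 (ce11, RefSeq sequence, plus strand), leaving out the ends of the peak that lie inside the flanking genes. Capitals mark CHR matches, as above.
mev-1 ced-9 operon promoter: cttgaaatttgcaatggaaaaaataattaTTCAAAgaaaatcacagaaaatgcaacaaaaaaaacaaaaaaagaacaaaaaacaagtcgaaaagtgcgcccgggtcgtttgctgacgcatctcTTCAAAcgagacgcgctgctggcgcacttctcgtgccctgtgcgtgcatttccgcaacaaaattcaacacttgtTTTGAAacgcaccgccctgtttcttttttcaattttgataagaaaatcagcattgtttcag
There were 3 matches, at bases 30 to 35 and 124 to 129 on the minus strand and at 198 to 203 on the plus strand. The middle one begins 12 bases past the summit and is the only match of any searched motif within 50 bases of it on either side. Of such windows at all conservative summits, 21% held a CHR match, so its presence is not rare. The GC content was 39.2%.

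Weaker signal covered the ced-9 neighbourhood, with 11 peaks in the conservative ranked list and 10 or 11 in the others. The strongest of the rest had a signal of 45.6 with a summit at +342 bp in a ced-9 coding exon (IDR 0.213), and both replicates listed a peak there, with signals of 20.8 and 26.5. Next came a peak of 45.1 at -1820 bp in a coding exon of jmjd-4 (IDR 0.158). Before ced-9's own start replicate 1 listed a peak in the 3′ part of mev-1, at -121 bp with a signal of 27.2 (IDR 0.365), and replicate 2 one at -446 bp with a signal of 2.37 (IDR 0.828). Neither place is in the conservative ranked list, and none of the weaker peaks passed the threshold in any list.

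The adaptor gene ced-4 (WBGene00000418, chrIII:4852325-4855171, plus strand), whose product activates the CED-3 caspase once CED-9 lets it go, had only weak signal, although it lies on the chromosome with the largest share of genes near a peak (38.1%). It had 10 peaks in the conservative ranked list within 2000 bp, none past the threshold. The strongest, with a signal of 41.7, lay in an intron of the gene C35D10.7, at +179 bp from that gene's 5′ end and +4047 bp from that of ced-4 (IDR 0.206). In the pooled ranked list the lowest IDR of any peak near ced-4 was 0.0872, which is the closest a member without a thresholded peak came to 0.01 in that list.

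At the 5′ end of ced-4 itself the conservative ranked list held 3 overlapping peaks, with summits at -173, +42 and +264 bp and signals of 8.50, 7.52 and 19.7, each at an IDR of 0.804. Replicate 1 listed all 3, with signals of 9.54, 7.54 and 13.6, and replicate 2 listed the last, with a signal of 8.81. Another summit of the promoter window, at -949 bp with a signal of 10.1, lay in F26A1.1. All 4 signals were under the list's median of 22.3. The strongest peak within 2000 bp in each replicate was 0.232 and 0.304 of the median conservative peak (mean 0.268 ± 0.0510 SD, n = 2). Both lay in C35D10.7 but at different places, at +1028 bp from its 5′ end in replicate 1 and +128 bp in replicate 2.

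At ced-3, the caspase that carries out the killing, a conservative peak stood far upstream. The gene (WBGene00000417) lies at chrIV:13198261-13204137 on the minus strand. The peak spanned chrIV:13206002-13206187, a width of 186 bp, with a signal of 245 and rank 1166 of 3903. Its edge was 1865 bp from the gene and its summit at -1979 bp, so it is a member's peak only within a window close to 2000 bp. It was intergenic, and ced-3 was nonetheless the gene with the nearest 5′ end. Among other annotated features, a pseudogene (WBGene00044909) lay 596 bp away and C48D1.9 lay 1205 bp away.

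Both replicates listed the ced-3 peak, with a signal of 138 in replicate 1 and 111 in replicate 2. The multiples were 1.58 and 1.67 (mean 1.63 ± 0.0609 SD, n = 2), each above the median conservative peak. The replicate summits were 40 bp apart, where the median over conservative peaks was 20 bp and 28.8% were 40 bp or more apart. The IDR was 4.29e-05 in the conservative ranked list, 2.19e-05 in replicate 1 and 6.38e-05 in replicate 2.

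The whole peak is shown because it is the only thresholded site in these lists for which a member has the nearest 5′ end. The strand is minus, that of ced-3, in ce11 from the RefSeq sequence. Capitals mark GAGCG, which reads CGCTC on the other strand, and a CHR match.
ced-3 upstream peak: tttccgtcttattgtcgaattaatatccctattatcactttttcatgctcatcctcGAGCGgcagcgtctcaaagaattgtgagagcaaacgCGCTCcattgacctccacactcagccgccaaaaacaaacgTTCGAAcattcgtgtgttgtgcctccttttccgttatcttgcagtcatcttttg
GAGCG stood at bases 57 to 61 and, on the opposite strand, at bases 93 to 97, with the CHR match TTCGAA at 133 to 138. Both GAGCG matches lay within 50 bases of the summit, and 31.8% of such windows at all conservative summits held at least 1. The share over all 300-base promoters was 19.1%. The GC content of the peak was 44.6%.

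The body and the proximal promoter of ced-3 had weaker peaks only. The conservative ranked list held 10 in all, and after the distal one the signals were 41.7 in an intron at +1610 bp (IDR 0.573), 40.3 at -1364 bp (IDR 0.232) and 40.1 in an intron at +3039 bp (IDR 0.622). Replicate 1 gave the last of these a signal of 36.0 at an IDR of 0.0890, the lowest of its weaker peaks at this gene. The remaining 6 had signals from 4.37 to 20.7, all at an IDR of 0.804. Inside the promoter window only replicate 1 listed peaks, with signals of 9.44 at -752 bp and 3.80 at -964 bp.

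Among the regulators, cep-1, the p53 relative that raises egl-1 and ced-13 after DNA damage, had its peak past its 3′ end. The gene (WBGene00000467) lies at chrI:8324286-8328859 on the plus strand, and the peak at chrI:8329677-8329910, 818 bp beyond it and 234 bp wide. The signal was 284, rank 993 of 3903. The neighbour rpl-25.2, a ribosomal protein gene on the opposite strand, starts so near that the summit was at -161 bp from it, and the peak sits in its promoter, at +5522 bp from the 5′ end of cep-1.

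In replicate 1 the peak by cep-1 had a signal of 160.5 and in replicate 2 of 119. The multiples were 1.84 and 1.78 (mean 1.81 ± 0.0389 SD, n = 2) and the summits were 1 bp apart. Both replicates thus stood above the median conservative peak, at an IDR of 2.59e-05 in the conservative ranked list.

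A further peak, over the 3′ end of cep-1 at chrI:8328627-8328986, passed the threshold in replicate 1 alone. Its signal there was 53.8 and its IDR 0.00781, just inside 0.01, with the summit in the 3′ UTR. Replicate 2 listed no peak at that place at any rank. The conservative ranked list gave it a signal of 52.3 at an IDR of 0.583, the strongest peak below the threshold near any member, and the pooled one an IDR of 0.104. In the pooled thresholded list a shoulder of the rpl-25.2 peak with a signal of 3.99 was counted separately. At cep-1's own promoter the conservative ranked list held no summit, and the pooled one held a peak of 26.5 at -638 bp inside F52B5.3 (IDR 0.567). The gene has 4 annotated transcript starts, and weak peaks also lay in a 5′ UTR inside it. There the pooled ranked list gave a signal of 9.07 at +1757 bp (IDR 0.811). Replicate 1 gave 17.6 at +1747 bp (IDR 0.853), and replicate 2 listed none there.

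The gene ces-1 (WBGene00000468, chrI:8633897-8636169, plus strand), a Snail-family repressor of egl-1, had 5 conservative ranked peaks, none of them upstream. A signal of 33.1 at +4191 bp stood at -145 bp from the 5′ end of the neighbour cpn-1 (IDR 0.565). A second peak of 33.1 had its summit in the 3′ UTR of ces-1 (IDR 0.804). The other 3, with signals of 13.8 to 16.7, lay in the body of cpn-1, a gene on the opposite strand whose 3′ end overlaps that of ces-1. Replicate 1 gave 0.292 of the median conservative peak and replicate 2 gave 0.181 (mean 0.237 ± 0.0785 SD, n = 2), at different places within cpn-1 and its promoter. The only upstream peak was one of 7.72 at -2080 bp in replicate 2 (IDR 0.828). The nearest conservative peak was 18503 bp away, at slc-25A42.

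Its regulator ces-2 (WBGene00000469, chrI:14961497-14965361, plus strand), a bZIP factor, had no peak within 2000 bp in any list. The nearest was 8442 bp upstream in the conservative ranked list (signal 61.1, at -619 bp from ZK909.3) and 7981 bp away in the pooled one. In replicate 1 it was 6201 bp away and in replicate 2, 8404 bp. The peakless stretch around ces-2 ran over chrI:14953094-14971561, or 18468 bp, a length reached by 821 of 51591 stretches, again a count of stretches and not of genes. On chromosome I, 9.94% of genes were at least as far from a conservative ranked peak, against 20.5% of all genes, and 14.8% of its genes had no peak in any list.

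**Figure D2:**
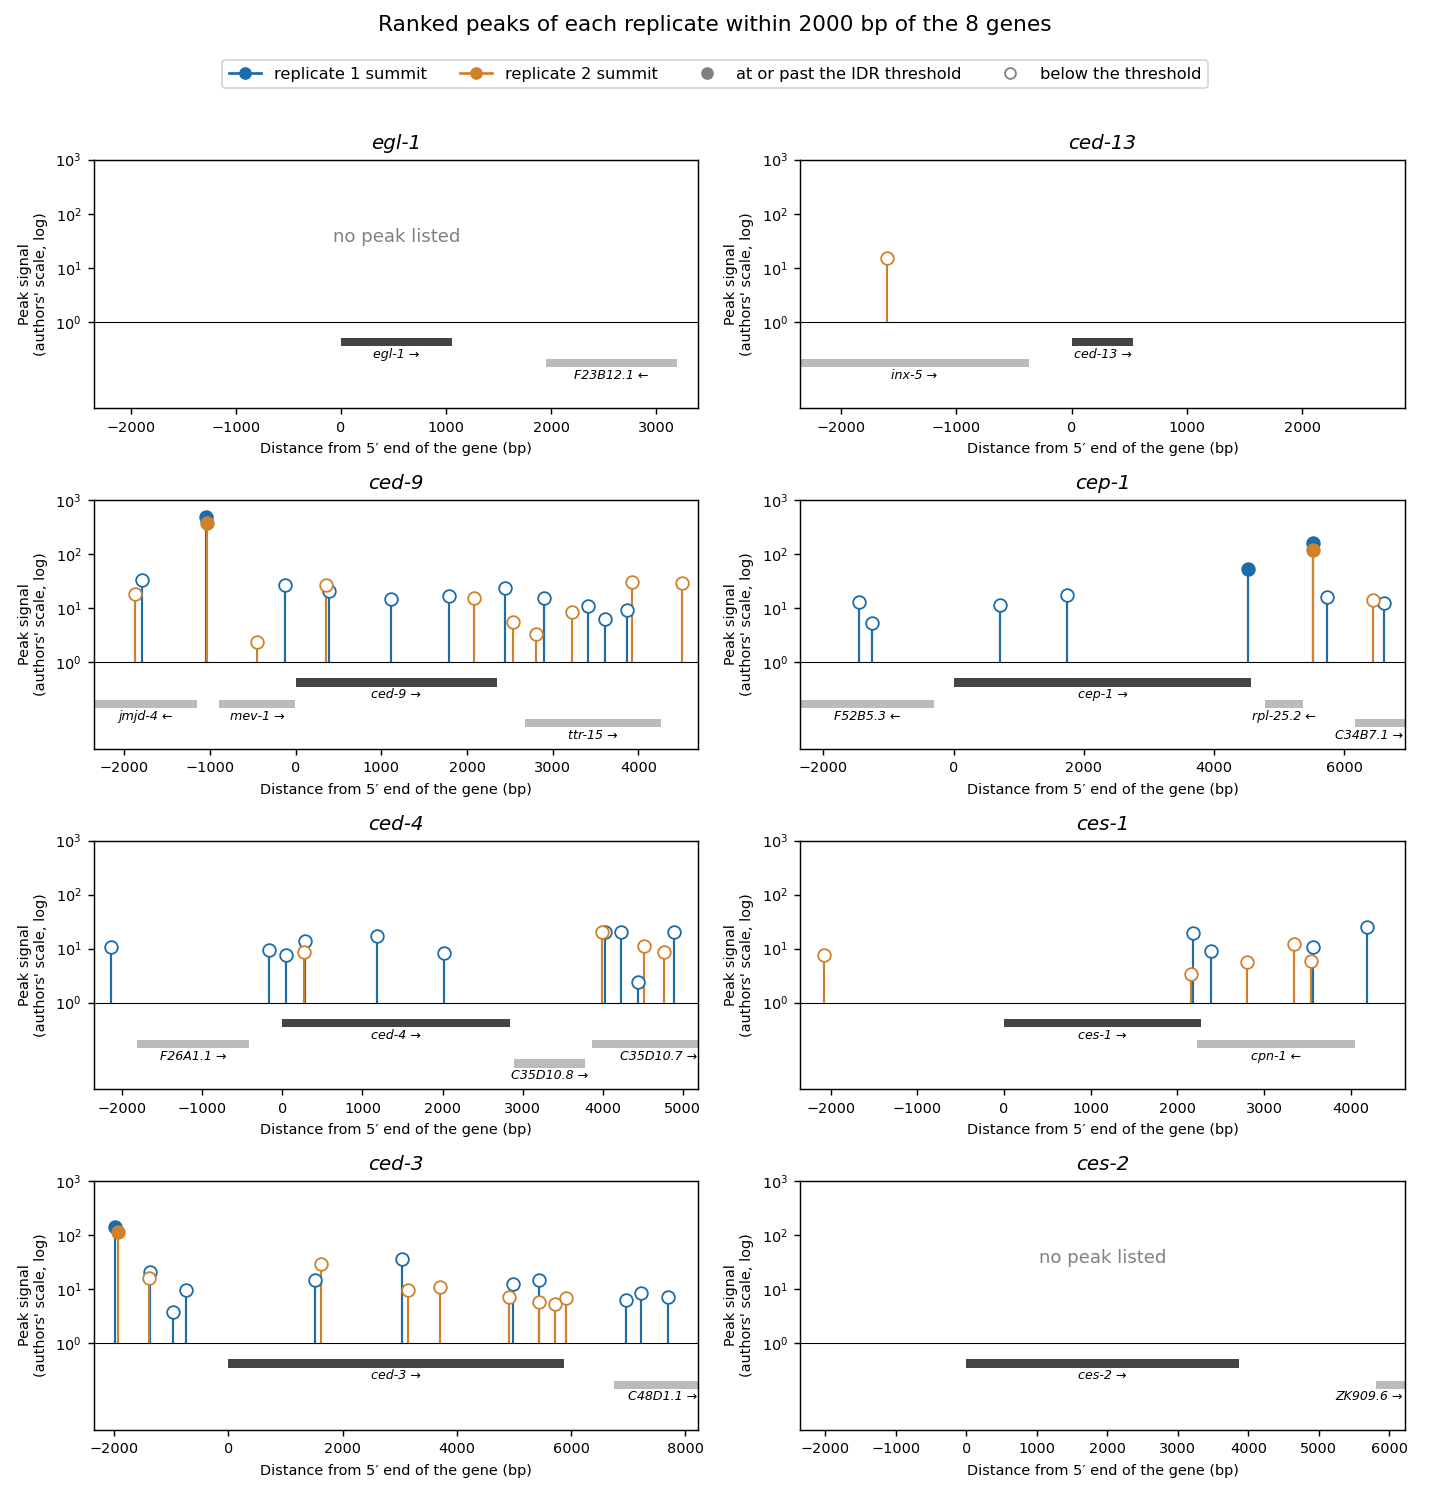
Ranked peaks of each replicate around the 8 genes, with the peak's signal on a log axis against the distance of its summit from the gene's 5′ end in bp, filled where the replicate's own list passes the IDR threshold, and genes drawn as bars with arrows for their strand relative to the member. Filled points of both replicates appear at -1979 or -1939 bp for ced-3, at -1042 bp for ced-9 in replicate 1 with replicate 2 9 bp away, and at +5522 and +5523 bp for cep-1, where replicate 1 alone has another at +4521 bp, while the panels of egl-1 and ces-2 are empty.

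The peaks below the threshold near the members were weak, none of them above the median conservative peak. There were 42 within 2000 bp in the conservative ranked list, with signals from 2.67 to 52.3 and a median of 18.2, where the median over all 51754 such peaks was 20.8. Of the 42, 24 (57.1%) stood at the highest IDR of 0.804, against 45.4% of all, and 25 (59.5%) overlapped a ranked peak in both replicates, against 51.2%. The lowest IDR of the 42 was 0.158, at ced-9, and none lay between 0.01 and 0.05. Their summits lay in coding exons in 16 cases, in introns in 12, between genes in 10 and in 3′ UTRs in 4.

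Ordered by the strongest conservative ranked peak within 2000 bp, the members ran from ced-9 through cep-1, ced-3, ced-4 and ces-1 to ced-13. Of all protein-coding genes, 96.9% were lower than ced-9, 90.3% lower than cep-1 and 89% lower than ced-3. The shares were 55% for ced-4, 48.5% for ces-1 and 43.2% for ced-13, the lowest of the members with a peak. These shares count the 7844 genes that had no such peak as lower. Among genes with a peak the first quartile of the signal was 40.9, with ced-4 just above it and ces-1 and ced-13 below. The order of cep-1 and ced-3 held in both replicates, at 1.84 against 1.58 and 1.78 against 1.67. For ced-4 and ces-1 it did not, since ces-1 was higher in replicate 1 and ced-4 in replicate 2.

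**Figure D3:**
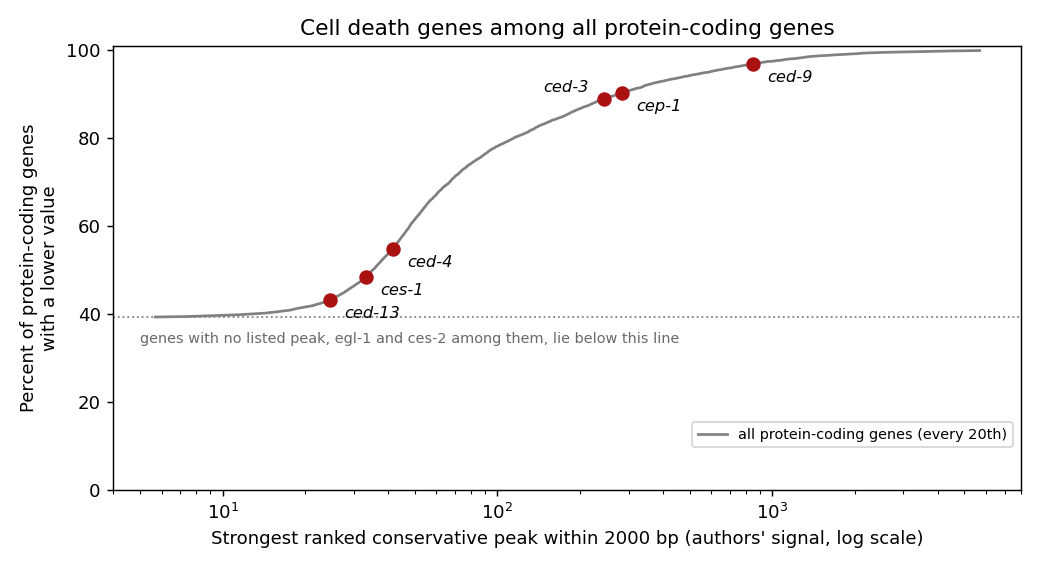
Percent of protein-coding genes with a lower value (vertical axis) against the signal of the strongest conservative ranked peak within 2000 bp (log axis), with all genes as a line and members as points. The points of ced-9, cep-1 and ced-3 lie at 96.9%, 90.3% and 89%, and those of ced-4, ces-1 and ced-13 on the lower part of the line between 43.2% and 55%.

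Assignment of the 3 thresholded peaks to the members rests on distance. When each peak counted only for the gene with the nearest 5′ end, ced-3 alone remained, 1 of 8 against 14.2% of all genes. The peaks of ced-9 and cep-1 then counted for jmjd-4 and rpl-25.2. Within 1000 bp of the gene ced-9 and cep-1 remained (20.8% of genes), within 500 bp no member did (18.1%), and within 5000 bp the count stayed at 3 (36.8%). The share of genes with a conservative peak within 2000 bp differed between chromosomes, at 36.7% on I, 38.1% on III, 25.9% on IV, 16.3% on V and 16.9% on X. Of the members without any thresholded peak, egl-1 lies on V and ced-13 on X, while ced-4 lies on III and ces-1 and ces-2 on I.

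Of the other motifs, searched on both strands in the members' 300-base promoters, few were present. The CHR occurred in the promoters of cep-1, egl-1, ced-3 and ced-4, 4 of 8 against 68.9% of promoters. The E2F letters TTTCCCGC, TTTGGCGC, TTTCGCGC and TTTGCCGC were at none (4.69% of promoters), and neither were GAGCG, the Snail E-box CACCTG that CES-1 binds (8.48%) or the bZIP letters TTACGTAA that CES-2 binds (0.330%). The p53 decamer, the repeat unit of p53 response elements, was found at ced-13 only, at -214 and -176 bp from its start, against 5.86% of promoters. No motif's letters contain those of another. A match describes the letters and not a site.

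Genes that act around the core pathway were counted in the same way. Across 6 lists with 63 genes, 19 (30.2%) had a promoter-proximal summit in the conservative list and 41 (65.1%) in its ranked list. Beside them stood 13.2% and 42% of all protein-coding genes and 0 and 1 of the 8 core genes. The 0 rests on the window, since the conservative summits of ced-9 (-1042 bp) and ced-3 (-1979 bp) lie within 2000 bp upstream. With 2000 bp upstream the 19 of the wider lists became 20, a count with no share of all genes at that width beside it. The difference was not tested, because the lists were chosen with results of these data known. Of genes that signal DNA damage to cep-1, 7 of 14 had a conservative summit, beside 13.2% of all genes. The strongest were those of atm-1, a checkpoint kinase (5.93 ± 0.914 times the median conservative peak, SD, n = 2), hpr-17, a loader of the checkpoint clamp (5.18 ± 0.351), and the clamp subunit genes hpr-9 (2.26 ± 0.487) and mrt-2 (1.97 ± 0.0830). The summits of atm-1 and hpr-9 were nearer to the starts of F56C11.3 and lron-10.

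Transcription factors and cofactors that act on death genes had 6 of 19, beside the same 13.2% of all genes, led by efl-1, lin-35, dnj-11 and mcd-1 itself. Here dnj-11, a chaperone-related gene that acts with ces-2 upstream of ces-1, gave 7.64 ± 0.332 times the median (SD, n = 2), with F38A5.2 nearer to the summit. Genes of DNA degradation had 4 of 11, which were crn-1, crn-2, wah-1 and cyn-13, a cyclophilin gene (0.532 ± 0.0720). That count was 1 in replicate 1's own list and 2 in replicate 2's, and the summit of crn-2 was nearer to the start of mrpl-48. Engulfment and phosphatidylserine exposure had 2 of 11, ced-5 and psr-1, and 1 in replicate 2's own list. It was also 1 by nearest 5′ end, since the summit of psr-1 was nearer to the start of F29B9.5. The caspase relatives csp-1, csp-2 and csp-3 had 0 of 3 and the mitochondrial dynamics genes 0 of 5, counts too small to read against 13.2%, and in the ranked list they had 2 and 3, beside 42% of all genes.

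**Figure D4:**
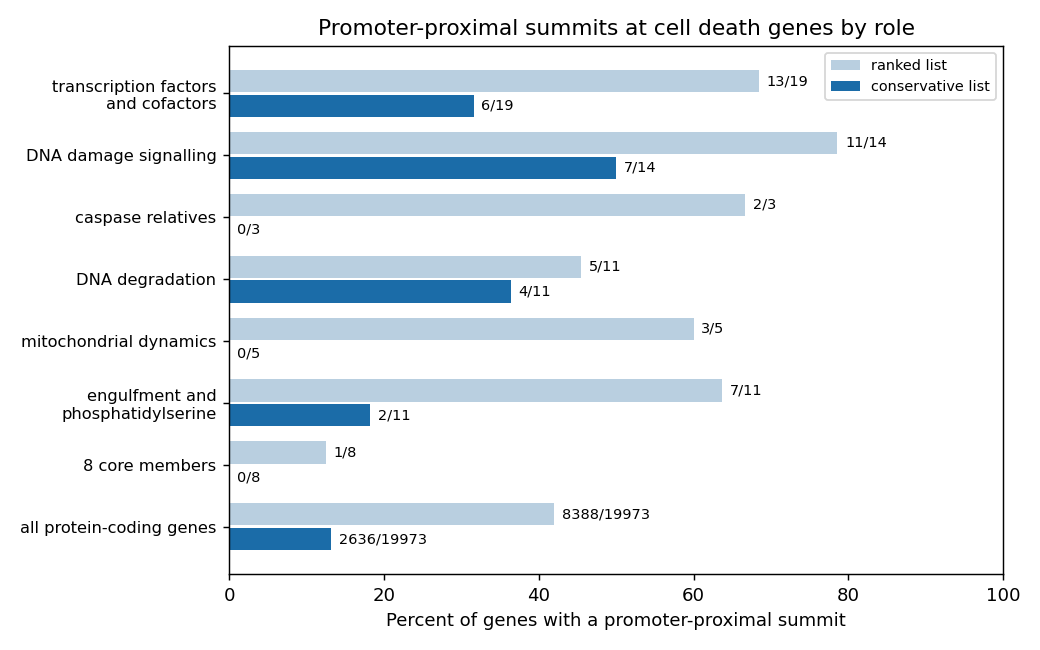
Percent of genes with a promoter-proximal summit (horizontal axis, from 0) in the conservative list and in its ranked list, by gene list, with the counts beside the bars. The 8 core genes have 0 and 1, and DNA damage signalling 7 and 11 of 14, beside 13.2% and 42% of all protein-coding genes.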

How the data were processed

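ChIP-seq peaks of MCD-1 tagged with GFP in 2 replicates of whole young adults were analysed from 8 peak lists that the authors deposited: a conservative, a pooled and 2 replicate lists, each with a ranked list behind it. Per the labels the reads were placed on ce11. Which aligner and peak caller were used is not given in the sources used here. A peak's signal is the caller's enrichment value as deposited, with unstated scaling, so it served only to order and describe peaks. The deposited score, at most 1000, follows the IDR, with 830 at an IDR of 0.01. Ranked lists also give a deposited -log10 IDR, capped at 5, which was turned back into the IDR. The series' ranked lists hold 4 further signal columns that name no sample, and these were not used.

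Gene models came from Ensembl release 115 and sequences from RefSeq's WBcel235 genome, within whose chromosomes all nuclear peaks ended. A peak counted for a gene when it overlapped the gene extended by 2000 bp on both sides. A replicate's value was its strongest ranked peak in that span, divided by its median over the conservative peaks. Shares of all protein-coding genes counted in the same way stand as background. With 1 group of 2 replicates no test was made. The 8 genes and the neighbours nearest their peaks were named, with up to 4 strongest genes of each wider list and, outside this rule, further neighbours chosen after their values were seen. The members, gene lists and motifs were chosen with earlier results of these data known. Windows, lists, assignment and scaling were varied. The counting was tested on planted peaks with known answers. Python 3.11.15, numpy 2.4.6, pandas 2.3.3 and matplotlib 3.10.9 were used.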

Additional observations from a re-analysis of the deposited data

How the results depend on the processing

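The count of 3 genes with a conservative peak became 0 with a window of 500 bp and 1 with each peak given to the nearest 5′ end alone, a setting chosen after seeing the data. It was 2 or 3 under the other settings, and 3 with either replicate left out. The count of 6 with a ranked peak stayed at 5 or 6. The single ranked promoter-proximal summit became 4 genes with 2000 bp upstream and 2 with any annotated transcript start, and ranged from 1 to 3 with a replicate left out. For 2000 bp upstream and for any transcript start no share of all genes stands beside the count. Wider or added windows can only raise a count, for any set of genes, so these rises are not a result about the members. The conservative summits of ced-9 (-1042 bp) and ced-3 (-1979 bp) also lie within 2000 bp upstream. The count of 0 members with a conservative promoter-proximal summit thus rests on the window. The 19 genes of the wider lists ranged from 14 to 20, and from 15 to 15 with a replicate left out. Scaling by the median of each replicate's own thresholded list gave 4.51 for ced-9, 1.47 for cep-1, 1.32 for ced-3 and 0.217 for ced-4. Depth is unknown and no control was used, so weak signal and absence below the lists' floor could not be separated.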
